A study of Mus musculus with 18 samples.

Results

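Livers of female mice fed 1 of 2 chemicals that the labels class as negative for liver carcinogenesis were compared directly: N-(1-naphthyl)ethylenediamine, given as its dihydrochloride, and pentachloronitrobenzene. The comparison uses 6 of the 18 arrays of the series, chosen by title. The 3 arrays of N-(1-naphthyl)ethylenediamine came from animals 12, 14 and 15, which received 2000 ppm in the diet. The 3 of pentachloronitrobenzene came from animals 16, 18 and 20, which received 8187 ppm in the diet. All were B6C3F1 mice, a hybrid used in cancer bioassays, aged 5 weeks at the start and 18 weeks at sampling after 13 weeks of exposure on 7 days per week. The doses differ, so chemical and dose cannot be told apart. Values of the feed control animals 27, 28 and 29, which share the strain, sex, age and route but received no chemical, are given beside the others as a description and entered no test. Each array held liver RNA of 1 animal, and precision is limited by there being 3 arrays per chemical. The series title places the arrays in a search for expression markers of liver tumours.

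N-(1-naphthyl)ethylenediamine is an aromatic amine used as a coupling reagent in colour tests for nitrite, and pentachloronitrobenzene is a chlorinated fungicide. Foreign chemicals in the liver are oxidised by cytochrome P450 enzymes, made water soluble by transferases that attach glucuronic acid, sulfate or glutathione, and exported. Receptors that sense such compounds (CAR, PXR and the aryl hydrocarbon receptor) and the oxidant-sensing factor NRF2 set the level of many of these enzymes. The same cells carry a circadian clock, make cholesterol and bile acids, store glycogen and respond to interferon, which induces antiviral proteins through factors that include Stat2 and Irf9.

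Several properties of the arrays moved with the groups. RNA integrity numbers in the labels were 7.7, 8.1 and 7.7 with N-(1-naphthyl)ethylenediamine and 8.8, 8.4 and 8.4 with pentachloronitrobenzene. The 18S ribosomal RNA control had log2 signals of 10.35, 11.56 and 6.97 against 6.28, 6.19 and 6.23. The beta-actin control probe sets gave a 3′ minus 5′ log2 difference of 1.85, 1.45 and 1.50 against 0.96, 1.00 and 1.05, and those of Gapdh gave 0.52, 0.40 and 0.41 against 0.09, 0.09 and 0.04. In none of these measures did the groups overlap (exact two-sided permutation p = 0.1 for each, the smallest p that 3 against 3 animals allow). An index of clock genes, the mean log2 signal of Per1, Per2, Per3, Nr1d1 and Nr1d2 minus that of Arntl, Npas2 and Clock, was 1.85, 1.88 and 2.00 against -1.35, -0.80 and 0.73, and -0.96, -0.71 and 0.47 in the feed control. It did not overlap between the chemicals either. The time of day at sampling is not given in the sources used here. With RNA integrity as a covariate within the 6 arrays only 3 genes were called in all, Cyp3a16, Gprin3 and Ifi27. Fits over all 18 arrays with RNA integrity, the beta-actin difference or the clock index as a covariate are given beside many of the results. A result given without them was not shown to hold in those fits. The feed control arrays read lower as a whole. Their median log2 signals of the tested genes were 6.34 to 6.51, against group means of 6.66 with N-(1-naphthyl)ethylenediamine and 6.65 with pentachloronitrobenzene. Feed control animals are placed below by their deposited values, and places near a group's edge can move with the scaling.

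**Figure D1:**
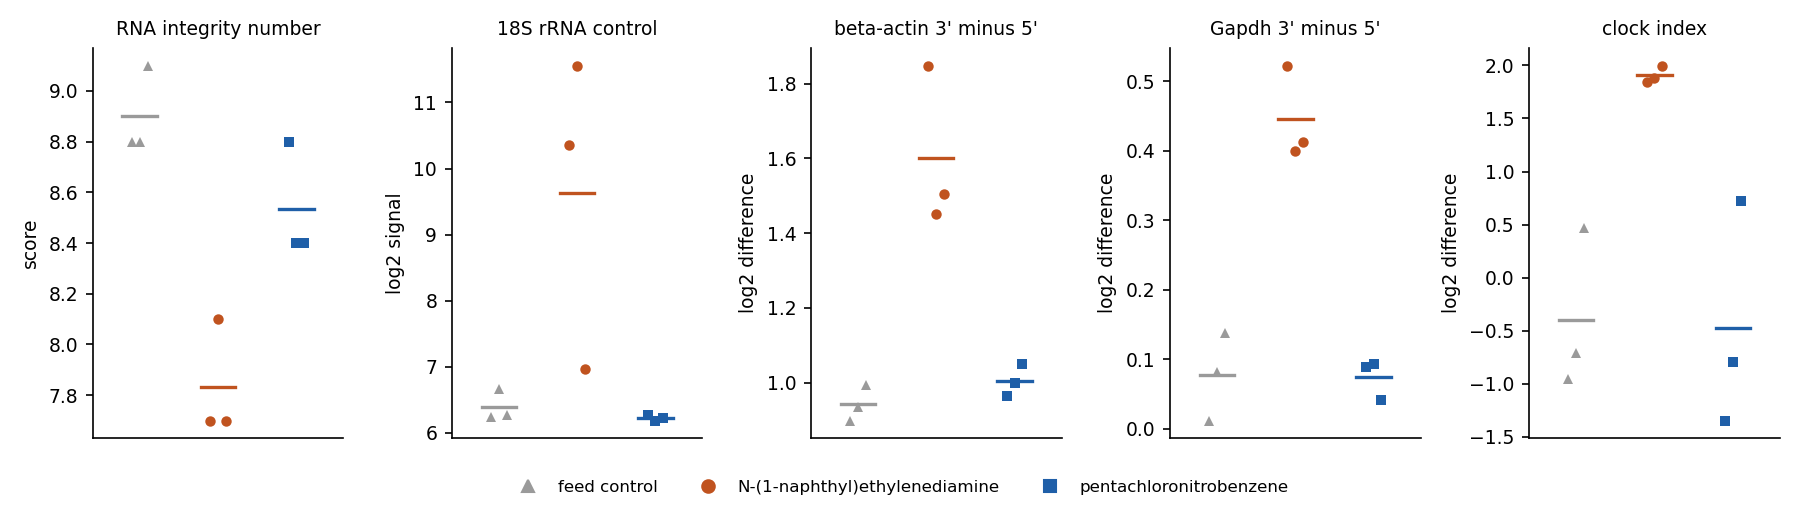
RNA integrity number, 18S ribosomal RNA log2 signal, 3′ minus 5′ log2 differences of beta-actin and Gapdh, and the clock gene index in each animal (points) with group means (lines) for feed control, N-(1-naphthyl)ethylenediamine and pentachloronitrobenzene. In all 5 panels the animals given N-(1-naphthyl)ethylenediamine lie apart from those given pentachloronitrobenzene, as with integrity numbers of 7.7 to 8.1 against 8.4 to 8.8.

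The comparison asked which liver genes differ between animals given the one and the other chemical. Of 12169 genes tested, 496 were called at a limma adjusted p under 0.05, which is 4.08% of the genes. With N-(1-naphthyl)ethylenediamine 194 were higher (1.59%), and with pentachloronitrobenzene 302 were higher (2.48%). The counts of each gene list below are to be read beside these shares. Differences below are log2 values of N-(1-naphthyl)ethylenediamine minus pentachloronitrobenzene with the standard error of the model, so a negative value is a higher level with pentachloronitrobenzene. Of the called genes, 104 differed by at least 1 log2 unit, 28 in the first direction and 76 in the second. In each of the 496 called genes the 3 animals of one chemical lay on one side of the 3 of the other, as they did in 26.3% of all genes tested. The median difference of all genes was 0.03. Correlations between arrays were 0.9932 to 0.9951 within the groups and 0.9873 to 0.991 between them. Without animal 12, 14 or 15 the count of calls was 210, 293 or 167, and without animal 16, 18 or 20 it was 211, 202 or 372, and 124 genes kept their call in all 6 of these fits. Without animals 12 and 14, whose 18S signals were high, 39 were called, with animal 15 as the lone array of its group and assumed to vary like the others.

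**Figure D2:**
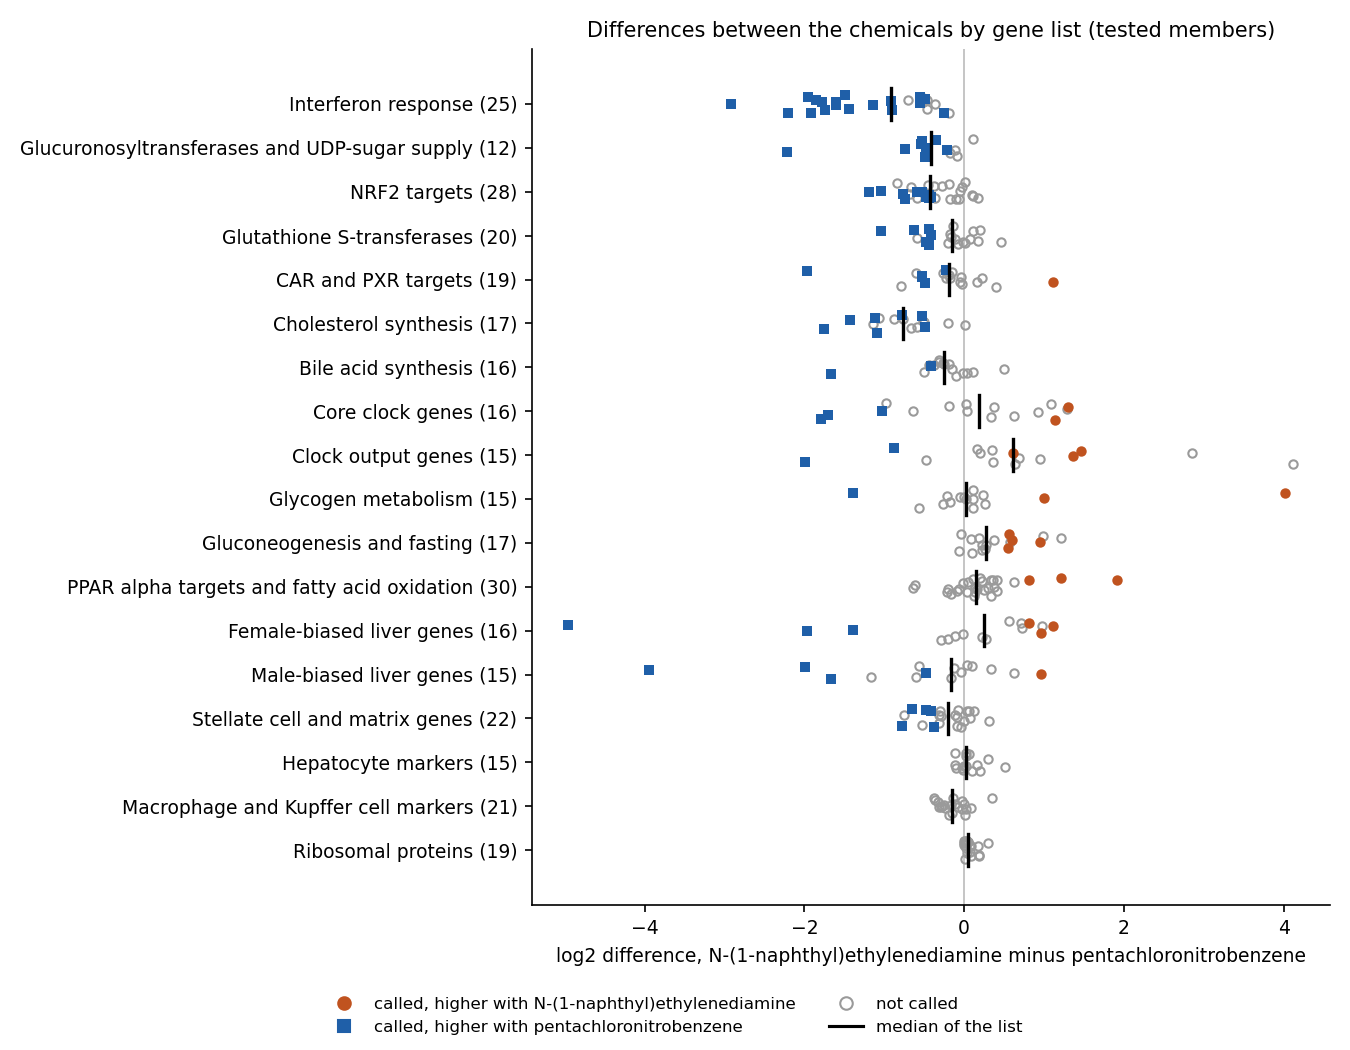
Log2 difference between the chemicals (x axis, N-(1-naphthyl)ethylenediamine minus pentachloronitrobenzene) for the tested members of 18 of the 49 gene lists (rows, number tested in brackets); filled points are called, open points are not, and the black line is the list's median. The interferon list lies on the pentachloronitrobenzene side for all 25 members, while clock, glycogen and sex-biased lists hold called genes on both sides.

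Most interferon-induced genes tested were higher with pentachloronitrobenzene. Of 25 tested members of an interferon list, 18 were called in that direction and 0 in the other, against 2.48% of all genes, and the list's median difference was -0.92. Ifit1, whose protein binds viral RNA, had log2 signals of 5.65, 6.27 and 5.38 with N-(1-naphthyl)ethylenediamine and 9.08, 8.53 and 8.46 with pentachloronitrobenzene, beside 5.87, 5.38 and 5.39 in the feed control. The lowest pentachloronitrobenzene animal lay more than 2 log2 units above the highest of the other 6, and the difference between the chemicals was -2.92 ± 0.24 (7.57-fold, adjusted p = 0.000745). The 2′-5′ oligoadenylate synthase Oas1a, which starts RNA breakdown in infected cells, read 6.09, 6.51 and 6.49 against 8.78, 8.56 and 8.36, and 6.61, 6.73 and 6.13 in the feed control. Its difference was -2.20 ± 0.15 (adjusted p = 0.000239). The groups did not overlap, and the feed control animals lay among or near those given N-(1-naphthyl)ethylenediamine.

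The promoters of these genes are shown because they were called together. By the rule used here, promoters were searched only for the called members of the list with the highest share called, which was this one. RefSeq sequence (build GRCm38.p6) was at hand for 15 of the 18 called members. The 250 bases before the start of transcription are printed for the 5 with the largest t statistic among the members with a single start listed. Capitals mark a motif resembling the interferon-stimulated response element, GAAA, any 2 bases, GAAA, on either strand, with overlapping matches joined. This motif was chosen after the values were seen.
Oasl1: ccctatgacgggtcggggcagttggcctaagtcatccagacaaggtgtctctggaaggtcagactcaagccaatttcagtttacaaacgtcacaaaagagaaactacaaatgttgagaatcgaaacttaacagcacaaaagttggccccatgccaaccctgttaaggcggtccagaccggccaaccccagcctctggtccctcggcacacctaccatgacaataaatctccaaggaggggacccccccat
Ifit3: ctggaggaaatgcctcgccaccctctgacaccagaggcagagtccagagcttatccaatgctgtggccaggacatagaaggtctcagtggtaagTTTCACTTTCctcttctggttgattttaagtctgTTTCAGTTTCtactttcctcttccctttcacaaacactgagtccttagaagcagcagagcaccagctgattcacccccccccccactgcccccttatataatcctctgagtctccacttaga
Irgm1: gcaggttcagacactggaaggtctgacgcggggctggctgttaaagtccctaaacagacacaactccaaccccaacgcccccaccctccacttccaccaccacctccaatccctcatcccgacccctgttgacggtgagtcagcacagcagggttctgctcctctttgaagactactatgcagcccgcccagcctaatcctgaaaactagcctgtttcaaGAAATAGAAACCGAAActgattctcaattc
Oas1a: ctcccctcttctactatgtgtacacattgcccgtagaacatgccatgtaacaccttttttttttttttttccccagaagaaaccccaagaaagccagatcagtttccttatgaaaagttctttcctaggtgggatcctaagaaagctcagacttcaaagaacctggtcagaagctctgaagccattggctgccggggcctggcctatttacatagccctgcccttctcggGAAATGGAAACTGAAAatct
Ifit1: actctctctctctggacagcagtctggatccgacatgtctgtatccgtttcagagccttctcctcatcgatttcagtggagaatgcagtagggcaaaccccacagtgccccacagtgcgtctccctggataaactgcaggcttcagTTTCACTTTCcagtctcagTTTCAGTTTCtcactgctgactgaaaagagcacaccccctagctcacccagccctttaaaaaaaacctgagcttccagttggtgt
In GRCm38.p6 these windows are Oasl1 at chr5:114922990-114923239 on the plus strand, Ifit3 at chr19:34583279-34583528 on the plus strand, Irgm1 at chr11:48871421-48871670 on the minus strand, Oas1a at chr5:120907526-120907775 on the minus strand and Ifit1 at chr19:34640639-34640888 on the plus strand.

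The motif was found in such a window of 10 of the 15 members. Of all 27025 genes with such a window 3.46% hold it, as do 2.98% of all 32851 windows. In Irgm1 and Oas1a it lies next to the start, with its last base 14 and 4 bases before the window's end, and in Oasl1 the letters were not found in this window. The other motifs searched on both strands were the E-box CACGTG, in 0 of the 15 members and 6.86% of all genes, and the D-box, in 0 of the 15 and 1.10%. The RORE core AGGTCA was found in 3 of the 15 members against 15.8% of all genes, the XRE TNGCGTG in 1 against 4.76%, and the ARE TGACNNNGC in 5 against 11.5%. The reverse of the RORE core can share its TGAC with the ARE. These matches are descriptions of sequence and were not tested.

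Further effectors had the same direction. Ifi27, an interferon-induced mitochondrial protein gene, read 9.13, 9.32 and 9.28 against 10.83, 10.88 and 10.84, a difference of -1.61 ± 0.07 (adjusted p = 4.34e-05). Ifit3, a partner of Ifit1, read 6.83, 7.03 and 6.86 against 8.45, 8.52 and 8.56 and differed by -1.60 ± 0.09. Oasl1, an oligoadenylate synthase-like gene, read 5.08, 5.27 and 5.27 against 7.32, 7.09 and 7.10. In each of these 3 genes the animals of a group lay close together, and the gap between the groups was several times wider than either. The GTPase gene Irgm1 differed by -1.49 ± 0.09 and Oasl2 by -1.92 ± 0.25. Outside the list, 4 of the 15 largest differences towards pentachloronitrobenzene were of genes also known as interferon-inducible. These were the GTPase gene Gbp6 at -2.58 ± 0.24, Xaf1 at -2.13 ± 0.16, Trim30d at -1.96 ± 0.20, and Ddx60 at -1.99 ± 0.24. In Ddx60 the N-(1-naphthyl)ethylenediamine animals lay under the array median, so they were set to their own arrays' medians and the level was at least 2.27-fold higher with pentachloronitrobenzene.

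The regulators of the response were called as well. They were picked for mention after their values were seen. Irf7, the factor that amplifies interferon production, read 6.76, 7.16 and 7.05 against 8.42, 8.94 and 8.85, a difference of -1.75 ± 0.16 (adjusted p = 0.00131). The signal carriers Stat2 and Irf9 differed by -0.92 ± 0.09 and -0.90 ± 0.11, and the feedback inhibitor Usp18 by -1.78 ± 0.25. B2m, the light chain of class I antigen molecules, differed by -0.26 ± 0.04 (adjusted p = 0.00909). The 7 members that did not pass had differences of the same sign, the smallest being that of Oas2 at -0.18 ± 0.11 (adjusted p = 0.387).

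Leaving out any 1 of the 6 animals left 15 or 16 interferon members called, and 15 members kept their call in every such fit. In fits to all 18 arrays, 17 members were called without a covariate, 14 with RNA integrity, 11 with the beta-actin 3′ minus 5′ difference and 9 with the clock index as a covariate. Without animals 12 and 14, 10 were called. In 15 of the 18 called members the feed control mean was nearer to N-(1-naphthyl)ethylenediamine than to pentachloronitrobenzene after arrays were centred on the tested genes, a description with no test. Of all 302 genes higher with pentachloronitrobenzene this held for 96 after centring and for 199 on the deposited values, so the measure moves with the scaling. Markers of Kupffer cells (0 of 6 called, mean log2 level 7.92 to 8.24 against 7.97 to 8.39) and of T and NK cells (0 of 4 tested markers called, 4.48 to 4.64 against 4.50 to 4.66) overlapped between the groups. With 4.08% of all genes called, 0 calls among so few markers says little. Of 2 tested B cell markers 1, Ighm, was higher with pentachloronitrobenzene (-1.20 ± 0.20), on a probe set of shared sequence. Without such probe sets its difference was 0.07 (limma adjusted p = 0.885). The B cell markers Cd79a and Ms4a1 lay under the array median in all 6 arrays. Of a wider list of 21 macrophage genes 16 lay below 0 with none called (median -0.15). The part of these cell types in the interferon result was not tested. In whole liver, fewer cells of a type and less RNA per cell cannot be told apart.

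**Figure D3:**
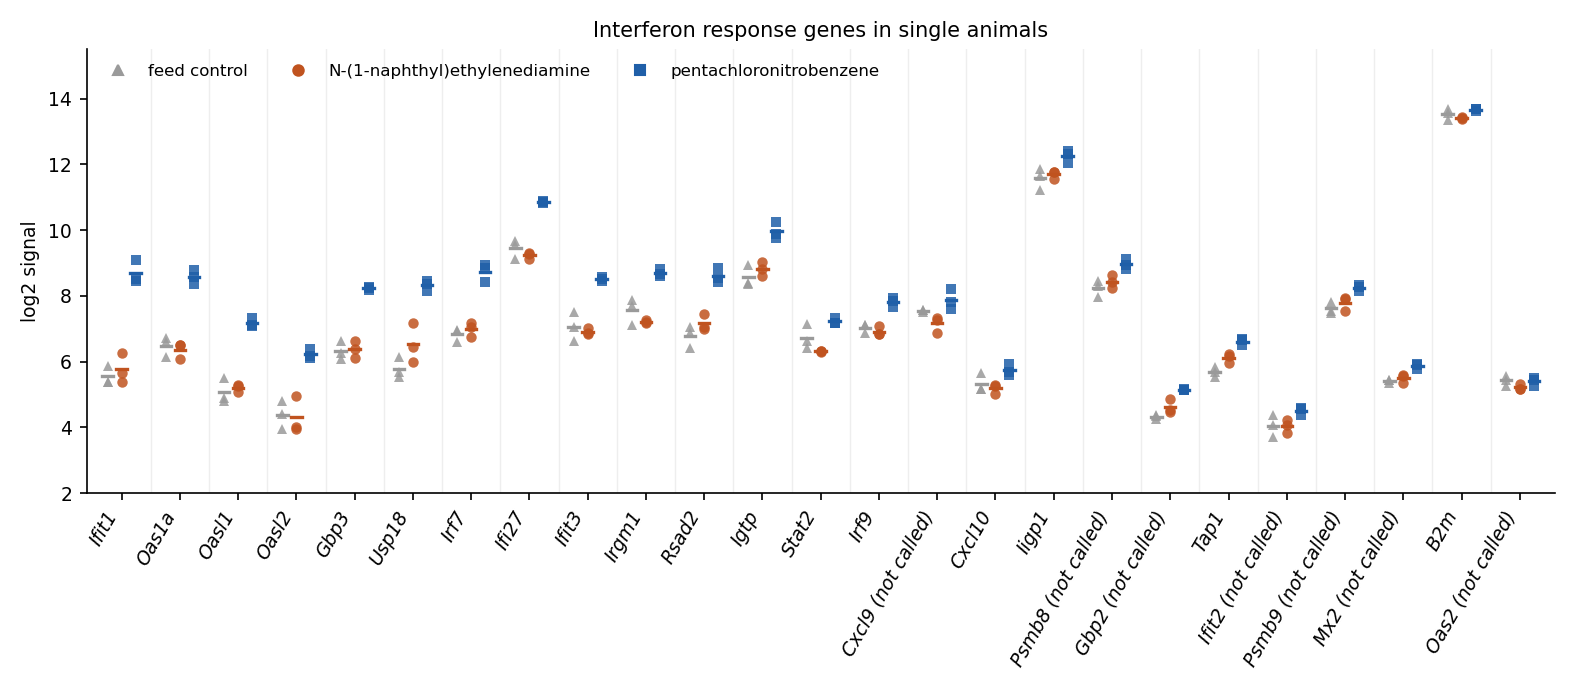
Log2 signals (y axis) of the 25 tested interferon response genes in each animal, with the group means as short lines, ordered by the size of the difference between the chemicals. In every gene the mean of pentachloronitrobenzene is above that of N-(1-naphthyl)ethylenediamine, and for Ifit1 its animals read 8.46 to 9.08 against 5.38 to 6.27.

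Among cytochrome P450 genes, differences lay in both directions. Cyp3a16, a steroid- and drug-oxidising enzyme gene typical of young and female mice, had the largest fitted difference of all called genes, on a dim signal in one group. Its log2 signals were 3.27, 2.50 and 2.95 with N-(1-naphthyl)ethylenediamine and 8.21, 7.91 and 7.47 with pentachloronitrobenzene. The first group lay under the array median, so the level was at least 11.8-fold higher with pentachloronitrobenzene, a bound below the folds of Ppp1r3g and Serpina12 given further on (fitted difference -4.96 ± 0.23, adjusted p = 4.34e-05). In the feed control animal 27 read 7.03 while animals 28 and 29 read 3.36 and 3.10, so the control animals were divided between the levels of the 2 chemicals. Its close relative Cyp3a44 read 8.14, 8.11 and 8.06 against 10.29, 10.02 and 9.89 (-1.96 ± 0.11, adjusted p = 0.000111), and 10.20, 9.24 and 9.05 in the feed control. The Cyp3a genes are near-identical in sequence, so their probe sets may share signal. Cyp3a11, the main adult member, read between 13.42 and 13.54 in all 6 animals (-0.05 ± 0.04, adjusted p = 0.461).

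Cyp2b13, a female-biased cytochrome, was higher with N-(1-naphthyl)ethylenediamine at 11.66, 11.18 and 11.36 against 10.12, 10.27 and 10.49 (1.11 ± 0.13, adjusted p = 0.00453). Of 19 tested CAR and PXR targets it was the only one called in that direction, and 5 were called in the other. Among those were Cyp3a44, Ugt2b34, the carboxylesterase gene Ces2a at -0.53 ± 0.12 and Cyp2c50 at -0.23 ± 0.04. Cyp2b10, the best known CAR target, read 9.93, 8.60 and 9.73 against 9.92, 9.93 and 10.77. Its groups overlapped and the difference did not pass (-0.79 ± 0.34, adjusted p = 0.244). Feed control animals read 8.82, 7.25 and 8.48. On these deposited values animal 27 lay above the lowest N-(1-naphthyl)ethylenediamine animal and the other feed control animals below all 6. The place of animal 29 depends on the scaling, since its array's tested-gene median was 6.34 against 6.64 for animal 14. Ces2a and Cyp2c50 lost their calls without 4 and 5 of the 6 animals in turn (adjusted p up to 0.125). In the fit to 18 arrays 1 of the list was higher with N-(1-naphthyl)ethylenediamine and 3 with pentachloronitrobenzene. With RNA integrity as a covariate these counts were 0 and 2, and with the beta-actin difference 0 and 1. With the clock index as a covariate, 0 of the list were called. Cyp2b13 thus lost its call with each covariate.

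Of 5 tested targets of the aryl hydrocarbon receptor, 2 were higher with N-(1-naphthyl)ethylenediamine and 1 with pentachloronitrobenzene. The latter was Ugdh, which is also counted in the glucuronidation and NRF2 lists below. Cyp1a2, which oxidises aromatic amines, read 13.40, 13.34 and 13.43 against 12.89, 13.00 and 13.06 (0.41 ± 0.05, adjusted p = 0.00531), beside 11.93, 11.80 and 12.20 in the feed control. Both chemical groups thus lay above every feed control animal, and that of N-(1-naphthyl)ethylenediamine lay highest. Cyp1a1, the most inducible target, was dim in all groups (3.69 to 4.16 against 3.79 to 3.98) and did not pass. Tiparp, a repressor of the receptor, differed by 0.66 ± 0.13, while its other probe sets gave -0.32 and 0.50. The call of Tiparp was lost without any 1 of animals 12, 14, 15, 16 and 18 (adjusted p up to 0.105). In the fit to all 18 arrays the adjusted p was 0.0961 for Cyp1a2 and 0.0599 for Tiparp.

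Of 12 glucuronidation genes, 8 were higher with pentachloronitrobenzene, 0 were lower and 4 did not pass (median -0.41). Ugt2b5, an abundant transferase for steroids and drugs, read 12.27, 12.40 and 12.32 against 12.92, 12.86 and 12.81, a difference of -0.54 ± 0.05 (adjusted p = 0.00153). Ugt2b34 read 11.19, 11.12 and 11.10 against 11.67, 11.58 and 11.65 (-0.49 ± 0.05). Both kept their call without any 1 animal, and in both the groups were apart by more than the spread within them. Ugt2b37 had the largest difference of the family at 4.29, 4.69 and 4.55 against 7.49, 6.97 and 5.73 (-2.22 ± 0.37, adjusted p = 0.0181). Animal 20 lay lowest of its group there, and the call was lost without animal 12, 15 or 18 (adjusted p up to 0.0724). Ugdh, which makes the UDP-glucuronic acid that these enzymes use, differed by -0.74 ± 0.13 and lost its call without animal 18 (adjusted p = 0.0535). The counts ranged from 2 without animal 18 to 6 without animal 14. They were 5 with all 18 arrays, 4 with RNA integrity, 1 with the beta-actin difference and 1 with the clock index as a covariate, and 0 without animals 12 and 14. Ugt genes of the 2b cluster are similar in sequence, and the probe sets may share signal.

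NRF2 targets and glutathione S-transferases, lists that share genes, were called in the same direction. Of 28 NRF2 targets 10 were higher with pentachloronitrobenzene and 0 lower (median -0.43), and of 20 glutathione S-transferases 6 and 0 (median -0.15). All of the called transferases but Gstm6 are also among the called NRF2 targets. Aox1, aldehyde oxidase, read 8.55, 8.36 and 8.41 against 9.54, 9.76 and 9.59 (-1.19 ± 0.09, adjusted p = 0.000464), and 8.54, 8.67 and 8.11 in the feed control. The N-(1-naphthyl)ethylenediamine animals overlapped the feed control while those of pentachloronitrobenzene lay above both. Gstp1, a pi-class transferase, differed by -0.47 ± 0.06, and Gsta3, an alpha-class transferase, by -0.41 ± 0.06. These 3 genes kept their call without any 1 animal. Ephx1, microsomal epoxide hydrolase, differed by -0.59 ± 0.10. Of members chosen after their values were seen, Gclc, which limits glutathione synthesis, differed by -0.77 ± 0.15 and Gstm3 by -1.05 ± 0.22. The calls of Ephx1, Gclc and Gstm3 were each lost without any 1 of 4 or 5 of the animals (adjusted p up to 0.119). Nqo1, a classical NRF2 target, read 6.86, 6.60 and 6.74 against 6.95, 7.13 and 7.24 and did not pass (-0.37 ± 0.11, adjusted p = 0.11). Of the NRF2 list 3 members were called without animal 18, 5 without animal 12 or 14, and 6 to 9 without any of the others. The count was 10 with all 18 arrays, 4 with RNA integrity, 3 with the beta-actin difference and 5 with the clock index as a covariate, and 1 without animals 12 and 14. Mu-class transferases are also similar in sequence.

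Among other enzymes, 2 of 10 sulfotransferase genes were called, both higher with pentachloronitrobenzene. Sult5a1 differed by -1.52 ± 0.29 and Sult3a1, an amine-conjugating and female-biased enzyme, by -1.39 ± 0.27. Both calls were lost without animal 12, 15, 16 or 18 (adjusted p up to 0.0975). Of 29 other phase I enzymes 5 were called, all higher with pentachloronitrobenzene. Of these, Aox1, Ephx1 and Ces2a are also among the called NRF2 targets. The others were Aldh1a7 at -0.40 ± 0.07 and the flavin monooxygenase gene Fmo1 at -0.40 ± 0.06. Over 18 arrays 1 of the phase I list was called with each of the 3 covariates. Of 15 exporters none was called, while 4 had an unadjusted p under 0.05, as 20.3% of all genes did. Of 14 uptake transporters 1 was called in each direction, beside 1.59% of all genes higher with N-(1-naphthyl)ethylenediamine and 2.48% higher with pentachloronitrobenzene. These were Slc22a5 at 0.67 ± 0.09 (adjusted p = 0.00866) and Slc22a30 at -0.67 ± 0.10 (adjusted p = 0.0103), and both kept their call without any 1 animal. With RNA integrity, the beta-actin difference or the clock index as a covariate over 18 arrays, 0 of the 14 were called. For the uptake transporter Slco1a1 the animals read 4.54, 7.83 and 5.61 against 8.09, 6.65 and 6.73, with overlap between the groups and an adjusted p of 0.422. All feed control animals lay higher there, at 9.08, 9.19 and 8.70.

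**Figure D4:**
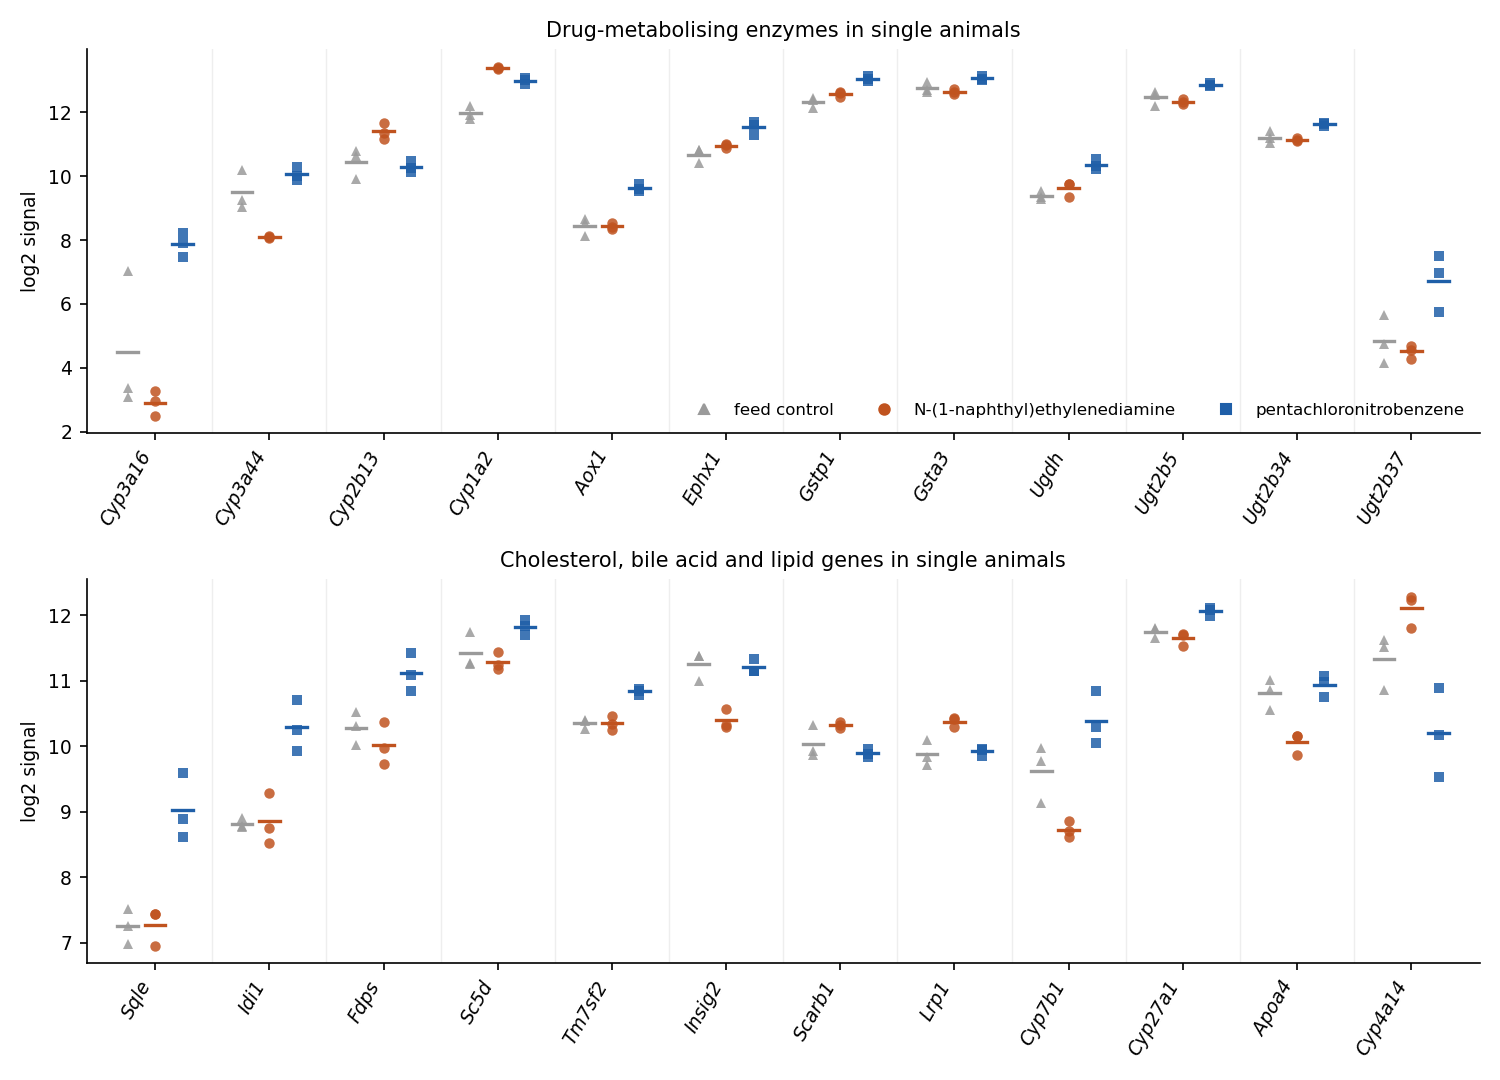
Log2 signals (y axes) of 12 drug-metabolising enzyme genes and 12 cholesterol, bile acid and lipid genes in each animal, with group means as short lines, for feed control, N-(1-naphthyl)ethylenediamine and pentachloronitrobenzene. Cyp3a16 shows the widest gap, with 2.50 to 3.27 against 7.47 to 8.21 and 1 feed control animal at 7.03.

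Of 17 cholesterol synthesis genes, 7 were higher with pentachloronitrobenzene, 0 were lower and 10 did not pass (median -0.76). Sqle, squalene epoxidase, read 7.44, 6.96 and 7.44 against 9.59, 8.89 and 8.62, beside 7.27, 6.99 and 7.51 in the feed control. The pentachloronitrobenzene animals lay above the other 6, which overlapped each other, and the difference was -1.75 ± 0.24 (3.37-fold, adjusted p = 0.00759). Of the earlier steps, Idi1, isopentenyl diphosphate isomerase, differed by -1.43 ± 0.23 and Fdps, farnesyl diphosphate synthase, by -1.09 ± 0.18. Of the later steps, the sterol reductase gene Tm7sf2 differed by -0.49 ± 0.07 and the desaturase gene Sc5d by -0.53 ± 0.08. Hmgcs1, named after its values were seen, which makes the precursor of mevalonate, read 11.52, 10.66 and 11.30 against 12.65, 12.28 and 11.76 and fell just outside the threshold (-1.07 ± 0.25, adjusted p = 0.0528). Sqle and Tm7sf2 kept their call without any 1 animal, whereas Idi1, Sc5d and Fdps lost it without animal 15 (adjusted p = 0.0639, 0.0623 and 0.0683). The count of the list ranged from 2 without animal 15 to 9 without animal 20. It was 10 with all 18 arrays, 6 with RNA integrity, 8 with the beta-actin difference and 1 with the clock index as a covariate, and 0 without animals 12 and 14.

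Genes of sterol control and bile acid synthesis differed singly. Insig2, which holds back sterol synthesis, read 10.30, 10.33 and 10.57 against 11.15, 11.34 and 11.16 (-0.81 ± 0.09, adjusted p = 0.00303), and in the feed control animals 27 and 28, both at 11.38, lay above all 6 while animal 29 lay between the groups. The lipoprotein receptors Lrp1 and Scarb1 were higher with N-(1-naphthyl)ethylenediamine, at 0.45 ± 0.07 and 0.43 ± 0.07. Their calls were lost without animal 18, and that of Lrp1 also without animal 15 (adjusted p up to 0.0579). Of 10 sterol control genes, 0 were higher with N-(1-naphthyl)ethylenediamine with any of the 3 covariates over 18 arrays. Higher with pentachloronitrobenzene was 1 with RNA integrity, and 0 with the beta-actin difference or the clock index. Of 16 bile acid genes 2 were called, both higher with pentachloronitrobenzene. Over 18 arrays 2 were called with RNA integrity, 1 with the beta-actin difference and 1 with the clock index as a covariate. Cyp7b1, the oxysterol hydroxylase of the alternative pathway, read 8.71, 8.87 and 8.61 against 10.84, 10.29 and 10.05 (-1.66 ± 0.18, adjusted p = 0.00303), with the feed control between them at 9.78, 9.98 and 9.13. Cyp27a1, which starts that pathway, differed by -0.41 ± 0.06. Apoa4, an apolipoprotein, differed by -0.88 ± 0.11. These 3 genes kept their call without any 1 animal.

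Clock genes differed in both directions. In the core clock, activators and repressors alternate over the day: Arntl, Npas2 and Clock drive the Per and Cry genes, whose proteins shut them off. Of 16 core clock genes 2 were higher with N-(1-naphthyl)ethylenediamine and 3 with pentachloronitrobenzene. Arntl read 5.71, 5.54 and 5.96 against 7.86, 7.75 and 6.99 (-1.79 ± 0.22, adjusted p = 0.00528), and 7.99, 7.48 and 6.86 in the feed control. Its probe set shares sequence with other transcripts, and the other probe set of the gene gave -0.27. Npas2 was at least 1.42-fold higher with pentachloronitrobenzene, since N-(1-naphthyl)ethylenediamine animals read 2.99, 3.32 and 2.97, under the array median, against 5.17, 5.24 and 4.00. Animal 20, the last of these, also lay under its array's median. Cry1 was at least 1.55-fold higher with pentachloronitrobenzene.

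Of the repressors, Per3 and Per1 were higher with N-(1-naphthyl)ethylenediamine, Cry1 was higher with pentachloronitrobenzene, and Per2, Cry2, Nr1d1, Nr1d2 and Ciart did not pass. Per3 read 5.37, 5.91 and 5.57 against 4.15, 4.07 and 4.72 (1.30 ± 0.20, adjusted p = 0.0119), and Per1 read 6.93, 6.76 and 7.59 against 5.73, 5.78 and 6.37 (1.14 ± 0.24, adjusted p = 0.0387). Nr1d1, which represses Arntl, read 8.06, 8.09 and 8.19 against 5.83, 7.36 and 8.35, so the groups overlapped through animal 20. Arntl and Per3 kept their call without any 1 animal, whereas Npas2, Per1 and Cry1 lost theirs without at least 4 of the 6 in turn (adjusted p up to 0.133). With RNA integrity, the beta-actin difference or the clock index as a covariate in the fits to 18 arrays, 0 of the 16 were called. The clock index is built from 8 of these genes, so that fit is not independent of them.

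Clock outputs followed with a wide spread among the pentachloronitrobenzene animals. Of 15 outputs 3 were higher with N-(1-naphthyl)ethylenediamine and 2 with pentachloronitrobenzene. Dbp, a D-box binding factor and the most rhythmic of them, read 9.45, 10.10 and 10.23 against 4.35, 3.90 and 9.17, and 4.00, 4.11 and 7.53 in the feed control. Animal 20 lay close to the N-(1-naphthyl)ethylenediamine animals while 16 and 18 lay near the array median, and the difference of 4.12 ± 1.16 did not pass (adjusted p = 0.0882). Rgs16, a feeding-responsive regulator of G proteins, read 10.76, 10.42 and 10.23 against 5.55, 8.62 and 8.66 and did not pass either (2.86 ± 0.71, adjusted p = 0.063). Tef, a relative of Dbp, differed by 1.46 ± 0.32, Lpin1, a phosphatidate phosphatase, by 1.36 ± 0.31, and Wee1, a cell cycle kinase, by 0.61 ± 0.11. The other probe sets of Tef differed by -0.15 and 0.20. Elovl3, a fatty acid elongase, read 4.59, 6.10 and 5.41 against 7.46, 7.29 and 7.33 (-1.99 ± 0.31, adjusted p = 0.0129), and Avpr1a, a vasopressin receptor, differed by -0.88 ± 0.18. Elovl3 lost its call without animal 15 (adjusted p = 0.0549), and the other 4 without at least 4 of the 6 animals in turn (adjusted p up to 0.14). With RNA integrity, the beta-actin difference or the clock index as a covariate over 18 arrays, 0 of the 15 outputs were called.

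**Figure D5:**
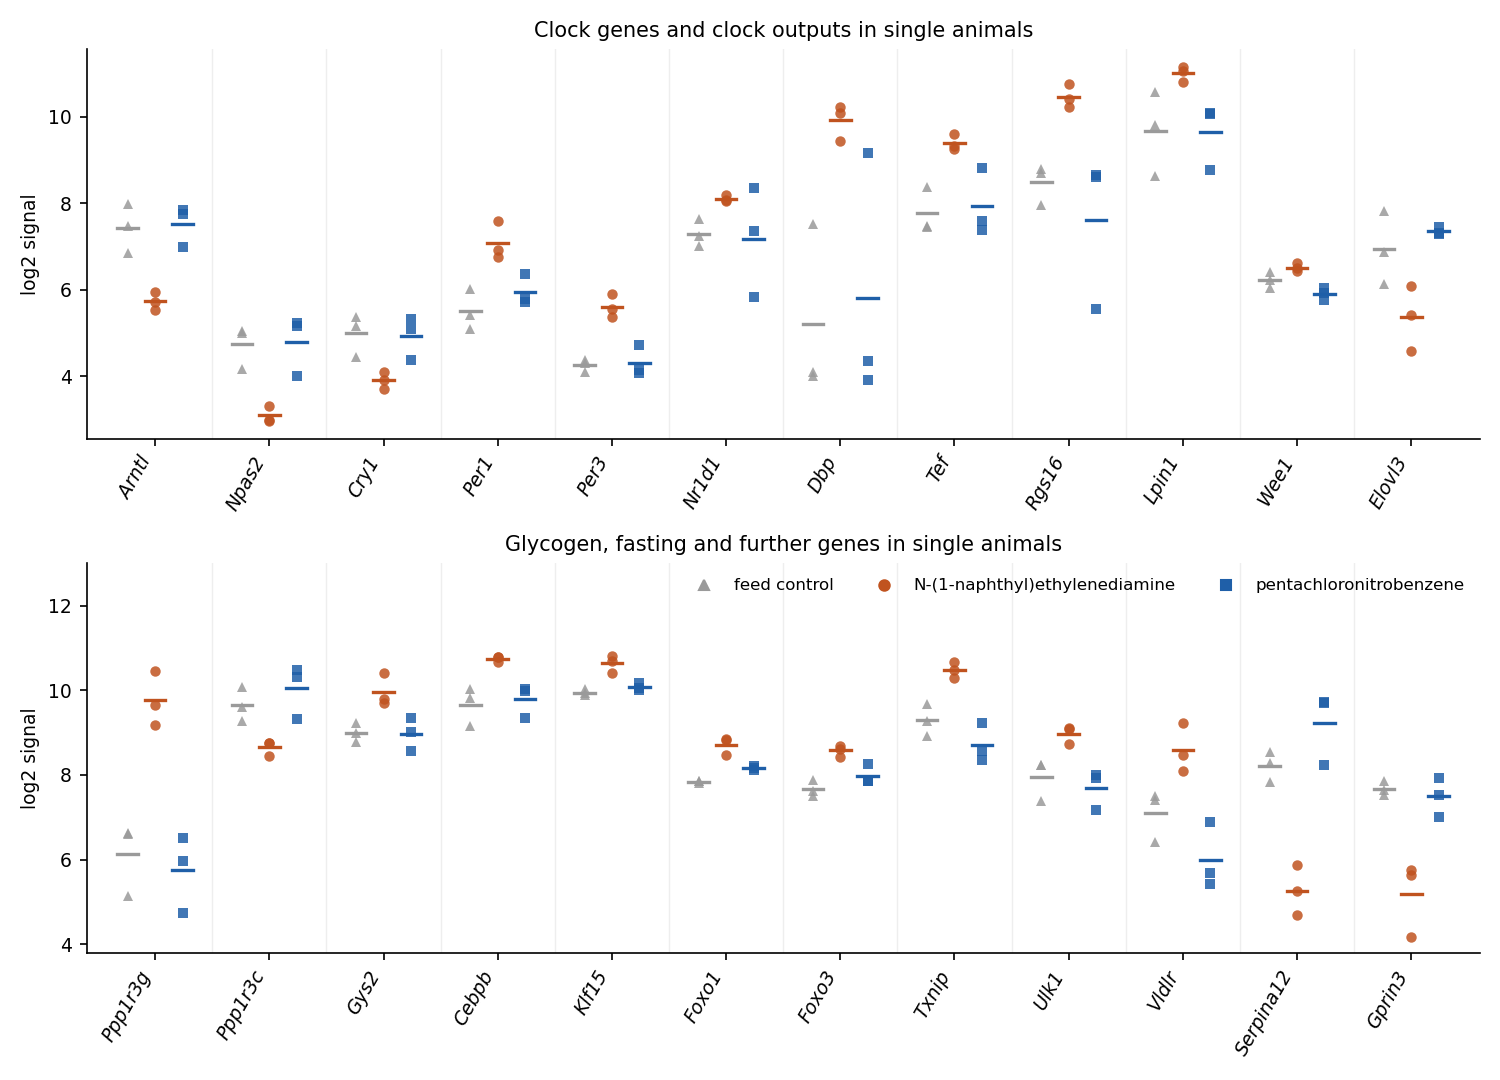
Log2 signals (y axes) of 12 clock and clock output genes and of 12 glycogen, fasting and further genes in each animal, with group means as short lines, for feed control, N-(1-naphthyl)ethylenediamine and pentachloronitrobenzene. Dbp of animal 20 lies at 9.17, apart from 4.35 and 3.90 in the other pentachloronitrobenzene animals, and Ppp1r3g separates the chemicals at 9.19 to 10.45 against 4.75 to 6.51.

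The largest called difference towards N-(1-naphthyl)ethylenediamine was that of Ppp1r3g, a subunit that brings protein phosphatase 1 to glycogen after a meal. It read 9.66, 10.45 and 9.19 against 4.75, 6.51 and 5.97 (4.02 ± 0.44, 16.2-fold, adjusted p = 0.00303), and 5.15, 6.64 and 6.62 in the feed control. Feed control and pentachloronitrobenzene animals overlapped, and all lay below every N-(1-naphthyl)ethylenediamine animal. Its relative Ppp1r3c, another glycogen-targeting subunit, lay the other way at 8.46, 8.75 and 8.76 against 10.49, 10.33 and 9.32 (-1.39 ± 0.27, adjusted p = 0.028). Gys2, the liver glycogen synthase, differed by 0.99 ± 0.22 (adjusted p = 0.0465), and the remaining 12 of 15 glycogen genes were not called. Ppp1r3g kept its call without any 1 animal, but had an adjusted p of 0.228 with the beta-actin difference and 0.33 with the clock index as a covariate. Ppp1r3c and Gys2 lost their calls without any 1 of animals 12, 14, 15, 16 and 18 (adjusted p up to 0.119).

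Of 17 fasting and fuel-switching genes, 4 were higher with N-(1-naphthyl)ethylenediamine, 0 were lower and 13 did not pass (median 0.27). All 4 encode transcription factors, and they were Cebpb at 0.95 ± 0.16, Klf15 at 0.56 ± 0.11, Foxo1 at 0.55 ± 0.11 and Foxo3 at 0.60 ± 0.13. Cebpb read 10.78, 10.66 and 10.78 against 9.35, 9.99 and 10.02. The coactivator gene Ppargc1a read 7.27, 7.44 and 6.75 against 5.72, 6.01 and 6.76 and did not pass (0.99 ± 0.27, adjusted p = 0.0782). Txnip, a glucose-responsive inhibitor of thioredoxin, read 10.66, 10.48 and 10.28 against 8.34, 9.22 and 8.57 (1.76 ± 0.20, adjusted p = 0.00396). Ulk1, a kinase that starts autophagy, differed by 1.27 ± 0.21. Cebpb lost its call without animal 12 or 15, Ulk1 without 14 or 15, and Klf15, Foxo1 and Foxo3 without at least 4 of the 6 in turn (adjusted p up to 0.129). The count of the list ranged from 0 without animal 12 to 6 without animal 20. With all 18 arrays 2 were called, with RNA integrity or the beta-actin difference as a covariate 0, and with the clock index 1.

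Of 30 PPAR alpha targets and fatty acid oxidation genes, 3 were higher with N-(1-naphthyl)ethylenediamine and 0 with pentachloronitrobenzene (median 0.15). Cyp4a14, a fatty acid omega-hydroxylase, read 12.24, 11.81 and 12.28 against 9.53, 10.90 and 10.17 (1.91 ± 0.29, adjusted p = 0.0119). The feed control, at 11.52, 11.63 and 10.86, lay below the first group. It overlapped the second only through animal 29, whose array read lower (tested-gene median 6.34 against 6.64 for animal 18). After arrays were centred on the tested genes, the feed control mean was nearer to N-(1-naphthyl)ethylenediamine for 2 of the 3 called genes, a description with no test. Cyp4a31, of the same subfamily, differed by 1.21 ± 0.22 and the thioesterase gene Acot3 by 0.81 ± 0.17. Cyp4a14 lost its call without animal 12 or 15 (adjusted p up to 0.0582), Cyp4a31 without 14, 15, 16 or 20, and Acot3 without any 1 animal. Of this list 2 were called with all 18 arrays. With RNA integrity as a covariate there 1 was called, and with the beta-actin difference or the clock index 0. Of 26 fatty acid synthesis genes 3 were called in each direction, beside 1.59% of all genes higher with N-(1-naphthyl)ethylenediamine and 2.48% higher with pentachloronitrobenzene. Only 1 of these calls was kept in every fit without 1 animal. Over 18 arrays 1 gene of that list was called with RNA integrity as a covariate, and 0 with the beta-actin difference or the clock index. Acaca, acetyl-CoA carboxylase, was higher with N-(1-naphthyl)ethylenediamine at 0.62 ± 0.10, although its other probe set gave -0.28, and Lpin2 differed by 0.99 ± 0.19.

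Liver genes that differ between the sexes were called in both directions. Of 15 male-biased genes 4 (Serpina12, Elovl3, Cyp7b1 and Gstp1) were higher with pentachloronitrobenzene and 1 with N-(1-naphthyl)ethylenediamine, and of 16 female-biased genes 3 were higher with each. Serpina12, which encodes the serine protease inhibitor vaspin, had the largest difference towards pentachloronitrobenzene among called genes whose groups both lay above the array median. It read 4.69, 5.87 and 5.25 against 9.69, 9.71 and 8.25 (-3.95 ± 0.41, 15.4-fold, adjusted p = 0.00248), and 8.28, 8.54 and 7.82 in the feed control. The N-(1-naphthyl)ethylenediamine animals lay below all others. Cyp2d9, a male-biased cytochrome, read 9.85, 10.24 and 9.86 against 9.22, 8.77 and 9.06 (0.97 ± 0.14, adjusted p = 0.00941), and the female-biased Atp6v0d2, a proton pump subunit gene, differed by 0.96 ± 0.12. These 3 genes kept their call without any 1 animal. Over 18 arrays, 0 genes of either list were called higher with N-(1-naphthyl)ethylenediamine with RNA integrity, the beta-actin difference or the clock index as a covariate. Cyp2d9 and Atp6v0d2 thus lost their calls there. Higher with pentachloronitrobenzene were 3 male-biased genes with each covariate, and 2, 2 and 0 female-biased genes in that order. In the growth hormone list, Cish, a feedback inhibitor of cytokine signalling, differed by 0.72 ± 0.12 and Igfbp2, an IGF-binding protein, by 0.46 ± 0.07, and the other 16 were not called. Igfbp2 kept its call without any 1 animal, and Cish lost it without animal 15 or 18 (adjusted p up to 0.0609). In the fit to all 18 arrays 0 of the growth hormone list were called, so both calls were lost there. With RNA integrity or the beta-actin difference as a covariate 0 were called, and with the clock index 1.

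The tissue was checked by markers. None of 7 tested hepatocyte markers was called, and their mean log2 level was 13.26 to 13.33 in the N-(1-naphthyl)ethylenediamine animals and 13.20 to 13.24 in the others. Endothelial markers (0 of 6 called), neutrophil markers (0 of 4) and bile duct markers (0 of 3) were not called either, and Cela2a, Cpa1 and Ctrb1 of pancreas and Adipoq of fat lay under the array median in all 6 arrays. With 4.08% of all genes called, 0 calls among so few markers of each cell type says little about the tissue. At an unadjusted p under 0.05 stood 2 of 15 members of the wider hepatocyte list, 5 of 19 of the endothelial list and 4 of 21 of the macrophage list, beside 20.3% of all genes. Of 22 stellate cell and matrix genes 5 were higher with pentachloronitrobenzene and 0 lower. Dcn, which encodes the collagen-binding proteoglycan decorin, read 10.12, 10.30 and 10.35 against 11.01, 10.92 and 10.81 (-0.66 ± 0.08, adjusted p = 0.00531) and kept its call without any 1 animal. Lum, lumican, differed by -0.77 ± 0.14, Rgs5, a pericyte marker, by -0.47 ± 0.10, Colec11 by -0.42 ± 0.08 and Ecm1 by -0.38 ± 0.08. Those 4 lost their calls without at least 4 of the 6 animals in turn (adjusted p up to 0.127), and 0 of the list were called with any of the 3 covariates.

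Most groups tied to growth, damage and protein handling held few or no calls. None of 14 fetal and tumour-associated liver genes was called, and 2 had an unadjusted p under 0.05, as 20.3% of all genes did. None of 19 p53 targets was called (3 unadjusted), and of 22 cell cycle genes 1 was higher with N-(1-naphthyl)ethylenediamine. Of 29 acute phase proteins 0 were called (12 unadjusted), of 20 endoplasmic reticulum chaperones 0 (6 unadjusted), of 19 ribosomal proteins 0 (4 unadjusted) and of 26 respiratory chain genes 0 (5 unadjusted). These lists had median differences between -0.04 and 0.06, beside 0.03 for all genes. The acute phase median hides a spread to both sides, with differences from -0.85 to 0.99 and 11 of 29 below 0. Its 12 of 29 with an unadjusted p under 0.05 stand beside 20.3% of all genes. The proteasome list leaned to one side. Of 27 genes 4 were higher with pentachloronitrobenzene and 0 lower, beside 2.48% and 1.59% of all genes, and 23 differences lay below 0 (median -0.17). In 15 the unadjusted p was under 0.05, and in 18 the groups did not overlap, as in 26.3% of all genes. None of the 4 calls was kept in every fit without 1 animal, and 0 of the list were called in the fit to all 18 arrays. Of 18 nuclear receptors 1 was called in each direction, as in 16 periportal genes, while of 19 pericentral genes 2 were higher with N-(1-naphthyl)ethylenediamine and 1 with pentachloronitrobenzene.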

How the data were processed

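The deposited table gives log2 signals of 45101 Affymetrix mouse probe sets on 18 arrays, as the authors' processed values. How background was corrected and arrays were normalized is not stated in the labels or the file header used here. Per the labels' protocols, liver was kept in RNAlater and RNA was extracted with Trizol and RNeasy. After 64 control probe sets were set aside, 34945 named 1 gene, 932 several and 9160 none; genes were named only from the first kind. Probe sets above their array's median on at least 3 of the 18 arrays were kept, with 1 probe set per gene, the one of highest mean signal, which left 12169 genes.

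The 6 arrays were fitted with limma 3.58.1 in R 4.3.3 (lmFit, eBayes with a mean-variance trend, Benjamini-Hochberg adjustment over all genes, adjusted p under 0.05). All adjusted p-values in the text are from limma. Standard errors are those of the model with n = 3 arrays per group, and p-values measure the spread between these animals only. Single values per array were compared by an exact two-sided permutation test. Where a group's mean lay under the lowest array median of the 6 (4.27), its fold is a lower bound, with each dim array's value raised to that array's own median. Data tables and figures were made in Python 3.11.15 with pandas 2.3.3, numpy 2.4.6 and matplotlib 3.10.9. In simulated data with 200 changed genes among 12169, the fit called 32, 179 and 199 of them at log2 changes of 0.5, 1 and 2, with 1, 12 and 9 unchanged genes called beside them. With no gene changed it called 0. The simulated noise was independent between genes and arrays. These counts therefore do not cover array measures that move many genes together and separate the groups.

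The comparison and the 49 gene lists were chosen with earlier results of these data known. Named genes are the 15 largest differences in each direction among called genes without overlap, the 5 members of each list with the largest t statistic, and any member of the clock, glycogen, receptor target and sex-biased lists. B2m, Gclc, Gstm3, Hmgcs1, Irf7, Irf9, Oas2, Stat2 and Usp18 were added after their values were seen. Alternatives changed the arrays fitted, scaling, filter, probe set choice, moderation, covariates and threshold.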

Additional observations from a re-analysis of the deposited data

How the results depend on the processing

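Beside 496 called genes (194 higher with N-(1-naphthyl)ethylenediamine and 302 with pentachloronitrobenzene), the fit to all 18 arrays called 327 (129 and 198), and moderation without a trend 265 (85 and 180). RNA integrity as a covariate left 3 (0 and 3) within the 6 arrays, where 364 and 436 genes had an unadjusted limma p under 0.05, and 114 (22 and 92) over 18 arrays. Over 18 arrays the beta-actin 3′ minus 5′ difference left 69 (12 and 57) and the clock index 49 (17 and 32). Without the arrays of high 18S signal, animals 12 and 14, 39 were called (6 and 33), with a single array left in one group and fewer residual degrees of freedom. An adjusted p under 0.01 gave 107 (24 and 83), and a log2 difference of at least 1 gave 104 (28 and 76). Leaving out 1 array gave 167 to 372 in all, 51 to 134 higher with N-(1-naphthyl)ethylenediamine and 116 to 238 with pentachloronitrobenzene. Quantile normalization, centring, the 3 other filters, both other probe set choices and array weights gave 430 to 543. The clock index reversed Cyp1a2 (-0.0031, adjusted p = 0.999), Cry1 (0.39, 0.719), Tef (-0.14, 0.867), Lpin1 (-0.11, 0.977) and Foxo3 (-0.0573, 0.962). RNA integrity within the 6 arrays reversed Lpin1 (-0.0395, adjusted p = 0.995), and leaving out shared-sequence probe sets reversed Ighm (0.0733, 0.885). The cause was not tested. No paired analysis was possible because the groups share no replicate numbers. With 3 animals a group and RNA integrity, 18S signal and clock index apart between the groups, the chemicals and these measures cannot be told apart within the 6 arrays, and dim probe sets give only bounds.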

Other observations

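Several genes outside the groups described so far also differed between the chemicals. Vldlr, the very low density lipoprotein receptor, read 9.22, 8.09 and 8.48 with N-(1-naphthyl)ethylenediamine against 5.69, 5.44 and 6.88 with pentachloronitrobenzene, and 7.42, 6.41 and 7.50 in the feed control (2.59 ± 0.39, adjusted p = 0.0109). The feed control animals lay below every N-(1-naphthyl)ethylenediamine animal and overlapped pentachloronitrobenzene, and all 3 other probe sets of the gene had the same sign. Mmd2 read 8.86, 8.62 and 7.91 against 6.78, 6.22 and 6.68 (1.90 ± 0.24, adjusted p = 0.00547). Gnat1, a transducin subunit gene best known from rod photoreceptors, was at least 2.42-fold higher with N-(1-naphthyl)ethylenediamine. Dct, a melanin synthesis enzyme gene, lay the other way at 6.60, 6.89 and 6.80 against 9.19, 9.21 and 8.27 (-2.13 ± 0.23, adjusted p = 0.00303). These 4 genes kept their call without any 1 animal. For Gprin3 the N-(1-naphthyl)ethylenediamine animals stood apart at 5.63, 4.18 and 5.76, against 7.01, 7.94 and 7.53 with pentachloronitrobenzene and 7.52, 7.87 and 7.65 in the feed control. Its call was lost without animal 18 (adjusted p = 0.0639).

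Metal transporters were called in both directions. Slc39a14, which imports zinc, iron and manganese, read 9.71, 9.76 and 9.83 against 8.72, 8.96 and 9.02 (0.87 ± 0.09, adjusted p = 0.00303). The manganese exporter gene Slc30a10 differed by -0.73 ± 0.13, a call lost without animal 12, 15, 16 or 18 (adjusted p up to 0.0789). Serpina7, which encodes thyroxine-binding globulin, differed by 1.93 ± 0.38, Gadd45g, a stress-response gene, by 2.05 ± 0.45, and Cyp26b1, which degrades retinoic acid, by 1.24 ± 0.26. Those 3 calls were each lost without any 1 of at least 4 of the animals (adjusted p up to 0.136). Among blood and B cell markers, Alas2, of heme synthesis in red cells, differed by 1.11 ± 0.23 (lost without any animal but 12, adjusted p up to 0.109). Ighm, an immunoglobulin heavy chain gene, differed by -1.20 ± 0.20 on a probe set of shared sequence, while its other 4 probe sets ranged from -1.08 to 0.11.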
